A study of Mus musculus with 36 samples.

Results

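The first 2 h after induction of the transcription factor Ikaros were examined in B3 cells, a mouse pre-B lymphocyte line, by mRNA-seq. The libraries were those of Ikaros cells labelled 0 h and 2 h, chosen by these labels alone, with 3 at each time, so 6 of the 36 libraries in the series, and all 12762 genes of the deposited table were tested. Ikaros cells were B3 cells transduced with a retroviral vector for haemagglutinin-tagged Ikaros fused to ERt2, the hormone-binding domain of the estrogen receptor, followed by GFP. Control cells carried the vector with ERt2 and without Ikaros. The 2 h cultures of both lines were exposed to the estrogen receptor ligand 4-OHT, a form of tamoxifen, at 0.5 uM for 2 h. The labels list the same drug and dose for the 0 h cultures, whereas the study's methods describe them as free of 4-OHT and collected separately. Time 0 h stood for batches 1, 2 and 4 and time 2 h for batches 1, 3 and 4, so time and collection occasion cannot be told apart within a line. The same step in the 6 control libraries was therefore taken as the background for drug, handling and occasion. Whether either line was derived from a single clone was not stated in the sources used here.

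Ikaros, encoded by Ikzf1, is a zinc finger protein of lymphocytes that binds DNA with a GGGAA core and both activates and represses genes. At the pre-B stage, cells that carry a pre-B cell receptor first divide and then leave the cell cycle, lower the surrogate light chain of that receptor and recombine the immunoglobulin light chain genes, and Ikaros promotes the second phase. The fusion protein is made before induction and is held outside the nucleus until 4-OHT binds it, so protein entry, not transcription of the transgene, starts the response.

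Values are log2 expression as normalized by the authors, from 1 to 22 over the table, with a median gene mean of 11.72. They allow a gene to be compared between libraries, and a difference of 1 is a doubling if the logarithm has base 2. The depth of each library is unknown from these values, so precision is limited by n = 3 per group. A cell holding less of an mRNA cannot be told apart from fewer cells holding it.

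The induced gene itself was read first. In Ikaros cells Ikzf1 stood at 20.02, 19.71 and 19.94 at 0 h and at 19.90, 20.23 and 19.63 at 2 h. In control cells it stood at 14.77, 14.59 and 14.74 and then at 14.71, 14.73 and 14.17. All 6 Ikaros libraries thus lay above all 6 control libraries, and the log2 change from 0 h to 2 h was 0.03 in Ikaros cells (SE 0.18, limma, adjusted p = 0.924), with overlapping groups. Vector and endogenous transcripts are not separated in these values, and the gene checks the line of each library but not its time. The pre-B identity on the label was checked with 12 markers, all 12 in the table. At 0 h in Ikaros cells the library means over these 12 lay between 14.25 and 14.55. Levels differed between markers. Cd79a, a signalling chain of the receptor, averaged 18.01, while all 3 values of Rag1, given below, lay under the median gene mean of 11.72. Of 27 markers of other blood and stromal cells 9 were in the table, namely Cd5, Hbb-b1, Itga2b, Itgam, Klf1, Klrd1, Lck, Lyz2 and Pecam1, and the other 18 were not analysed here. None of the 9 lay above the median gene at 0 h except Pecam1, at a mean of 12.74. The library means over these 9 lay between 8.02 and 8.21 at 0 h and between 8.31 and 8.52 at 2 h in Ikaros cells, and between 7.51 and 8.21 in all 6 control libraries.

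Library medians agreed within 0.03 across these 12 libraries. At 0 h the SD of deviations from the group mean over all genes was 0.21 to 0.26, and by this measure no library stood apart. Single gene lists varied more at 0 h. Library means of the hypoxia list described below ranged from 12.70 to 13.65 in Ikaros cells and from 12.10 to 12.91 in control cells. The batch 4 library at 2 h was the farthest from its group in both lines. Its SD of deviations from the group mean was 0.44 in Ikaros cells and 0.40 in control cells, against 0.21 to 0.31 in the other 10 libraries. Losses of a call without the batch 4 library of Ikaros cells at 2 h are given below for single genes. List counts without it are given for some lists only.

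Expression changed widely in Ikaros cells within 2 h. A total of 2444 genes, 19.2% of those tested, were called at an adjusted p under 0.05, with 1218 higher (9.54%) and 1226 lower (9.61%). Of these, 620 genes (4.86%) differed by at least 1 on the log2 scale, 227 upward and 393 downward. The same step in control cells called 6 genes, which is 0.047%, and none of these reached a log2 change of 1, although 1006 genes there had an unadjusted p under 0.05 against 4427 in Ikaros cells. The SD of the log2 changes over all genes was 0.58 in Ikaros cells and 0.34 in control cells, and the medians were 0.03 and 0.00. All 3 libraries at 2 h lay beyond all 3 at 0 h for 38.8% of the genes in Ikaros cells and for 15.8% in control cells. Across genes the steps of the 2 lines, which share no library but do share occasions, had a Pearson correlation of 0.39 and a Spearman correlation of 0.48, given as a description since genes are not replicates.

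The number called depended on single libraries and on how the spread was estimated. Without the batch 4 library of Ikaros cells at 2 h, the count was 1065, made up of 445 rises and 620 falls. Leaving out batch 1 or batch 4 at 0 h gave 1439 or 1565, and a fit of only the compared groups, which estimates the spread from 6 libraries, called 758. The control library of batch 4 at 2 h moved with these genes. It was the lowest of the 3 control libraries at 2 h for 892 of the 1226 genes called lower in Ikaros cells (72.8%), compared with 39.9% of all genes, and the highest for 856 of the 1218 called higher (70.3%), compared with 43.0%. Among the 620 genes called lower without batch 4 of Ikaros cells at 2 h, it was still the lowest for 62.6%. Among the 445 called higher in that fit, it was the highest for 49.9%, compared with 43.0% of all genes. Its part in the step was not tested.

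**Figure D1:**
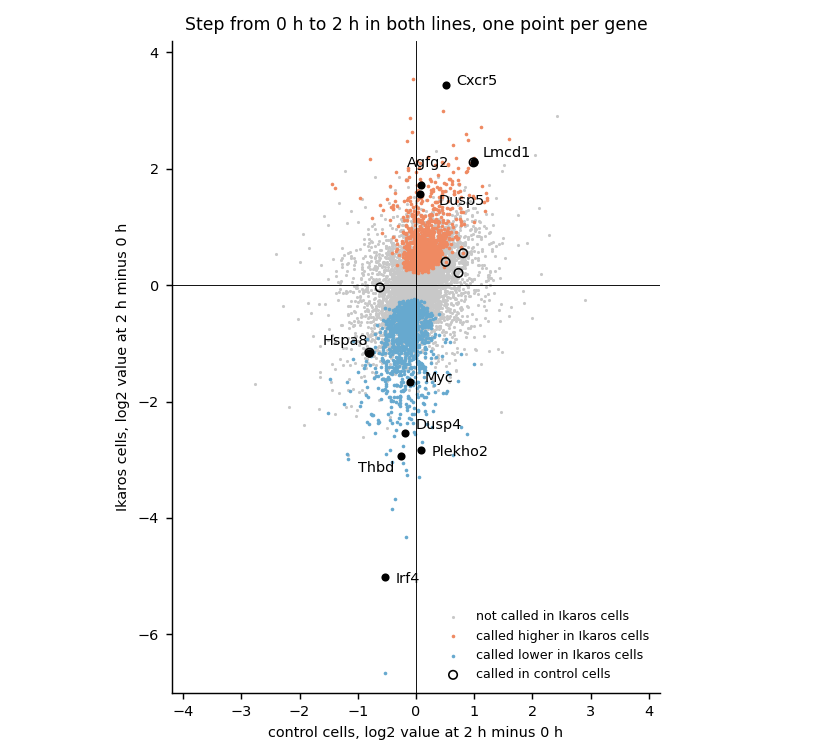
Log2 value at 2 h minus 0 h for each of the 12762 genes, in control cells on the x axis and in Ikaros cells on the y axis (means of 3 libraries). Orange and blue points are the 1218 genes called higher and the 1226 called lower in Ikaros cells, and black rings are the 6 called in control cells. The cloud is longer along the y axis, with Irf4 at -5.02 and Cxcr5 at 3.44 in Ikaros cells.

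The difference between the 2 steps was tested directly. It was called for 396 genes (3.1%), with 155 more positive (1.21%) and 241 more negative (1.89%) in Ikaros than in control cells. The labels give the control and Ikaros cultures of a batch the same number. With each such pair at each time as its own replicate block, 632 genes were called. Leaving out a single library gave 273 to 473, but leaving replicate 1 or 2 out of every group gave 54 or 55. Of the 45 genes with a called difference that the naming rule chose, 32, 31 and 8 lost the call without replicate 1, 2 and 3 of every group. A step called in Ikaros cells and not in control cells was thus in most cases not shown to differ from the control step. Below, "differed from the control step" is written only where this test was passed.

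The largest falls among genes at or above the median level were in Thbd, Plekho2, Tifab, Fam212a, Anks1, Fam43a, Slco4a1, Pax7, Nedd9 and Spn. Thbd encodes thrombomodulin, a cell surface receptor for thrombin (chromosome 2, 148404466 to 148408188, reverse strand, GRCm38). It stood at 13.08, 12.69 and 12.78 at 0 h and at 10.06, 10.17 and 9.52 at 2 h in Ikaros cells, a fall of 7.6-fold (log2 change -2.93, SE 0.20, adjusted p = 5.99e-11). In control cells its values were 13.15, 12.92 and 12.95 and then 12.92, 13.03 and 12.30, so only the batch 4 library at 2 h lay below the 0 h range. Plekho2, a pleckstrin homology domain protein (chromosome 9, 65552698 to 65580040, reverse strand), went from 14.52, 14.37 and 14.54 to 11.79, 11.89 and 11.24. Its change of -2.84 (SE 0.24, adjusted p = 2.61e-09) stands against 0.09 in control cells, where the groups overlapped.

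Slco4a1, Fam212a and Anks1 fell with little variation between libraries. Slco4a1, an organic anion transporter that can carry thyroid hormone, went from 13.69, 13.79 and 13.84 to 11.62, 11.62 and 11.65, and in control cells all 6 values lay between 14.41 and 14.56. Fam212a went from 13.31, 13.09 and 13.16 to 10.78, 10.83 and 10.82. Anks1, an ankyrin repeat adaptor, went from 13.96, 14.08 and 14.02 to 11.67, 11.76 and 11.52. The log2 changes were -2.14, -2.38 and -2.37, and for each gene the 3 values at 2 h lay close together, batch 4 included.

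The other falls of this group were Tifab with -2.54, Fam43a with -2.28, Pax7, a paired box transcription factor best known from muscle stem cells, with -2.08, Nedd9, an adaptor of integrin signalling, with -2.05, and Spn, the surface sialoglycoprotein CD43 that marks early B cell stages, with -1.98. In Nedd9 the batch 4 library was low in both lines, at 11.81 against 12.68 and 12.63 in Ikaros cells and at 13.37 against 14.63 and 14.40 in control cells. Spn showed the same, at 12.53 in batch 4 of control cells against 13.79 and 13.64. The difference of steps for Spn was not called (-1.55, adjusted p = 0.0578), but was with the replicate block (adjusted p = 0.00636). The other 9 falls differed from the control step. With replicates 1 or 2 left out of every group this call was lost for Tifab (adjusted p = 0.0811 and 0.0736), Pax7 (0.178 and 0.291) and Nedd9 (0.241 and 0.42), for Fam43a without replicate 2 (0.058), and for Nedd9 in a fit of the compared groups only (0.0735). Without the batch 4 library of Ikaros cells at 2 h the log2 changes were -1.77 for Nedd9 and -1.72 for Spn, and both stayed called.

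With the same limit on the mean over all 36 libraries, the largest rises were in Agfg2, Tmem121, Hbb-b2, Dusp5, Lig4, Neil1, P2ry10, Ldlrad4, Tubb2b and Lax1. They were smaller than the falls. That limit does not place a gene at or above the median level in the step itself. Hbb-b2 and Lig4 lay below 11.72 in every 0 h library of Ikaros cells. Agfg2, related to the HIV Rev-binding protein (chromosome 5, 137650463 to 137684726, reverse strand), went from 12.53, 12.48 and 12.62 to 14.33, 14.19 and 14.26, a rise of 3.3-fold (log2 change 1.72, SE 0.10, adjusted p = 2.81e-12), and all 6 control values lay between 12.48 and 12.68. Tmem121, a transmembrane protein next to the immunoglobulin heavy chain locus, went from 13.67, 13.39 and 13.49 to 15.12, 15.39 and 15.17 (log2 change 1.71). The control libraries lay between these groups, from 14.05 to 14.42. The 2 h Ikaros libraries of both genes stood clear of every 0 h library, which within the Ikaros line the choice of these genes required.

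Lig4, the ligase that seals the ends cut during antigen receptor recombination, went from 10.82, 10.74 and 10.97 to 12.71, 12.30 and 12.15 (log2 change 1.54, SE 0.20, adjusted p = 3.58e-06), while control values ranged from 10.56 to 11.25. Neil1, a glycosylase of base excision repair, rose by 1.52. Among signalling proteins, P2ry10, a G protein-coupled lipid receptor of lymphocytes, rose by 1.44 and Lax1, an adaptor that dampens antigen receptor signals, by 1.36. Tubb2b, a beta tubulin, rose by 1.37 and Ldlrad4, an inhibitor of TGF-beta signalling, by 1.43. Hbb-b2, an adult beta globin, rose by 1.60, but its 3 values at 0 h spread from 8.44 to 10.30, and its reads may be shared with near-identical globin genes, so the value is uncertain. The step of Hbb-b2 was not shown to differ from that of control cells (1.60, adjusted p = 0.0922, and 0.0135 with the replicate block), whereas the other 9 rises differed from the control step. Without replicate 1 of every group that call was lost for 7 of these 9, all but Agfg2 and Tmem121 (adjusted p from 0.0669 for Ldlrad4 to 0.373 for Lax1).

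**Figure D2:**
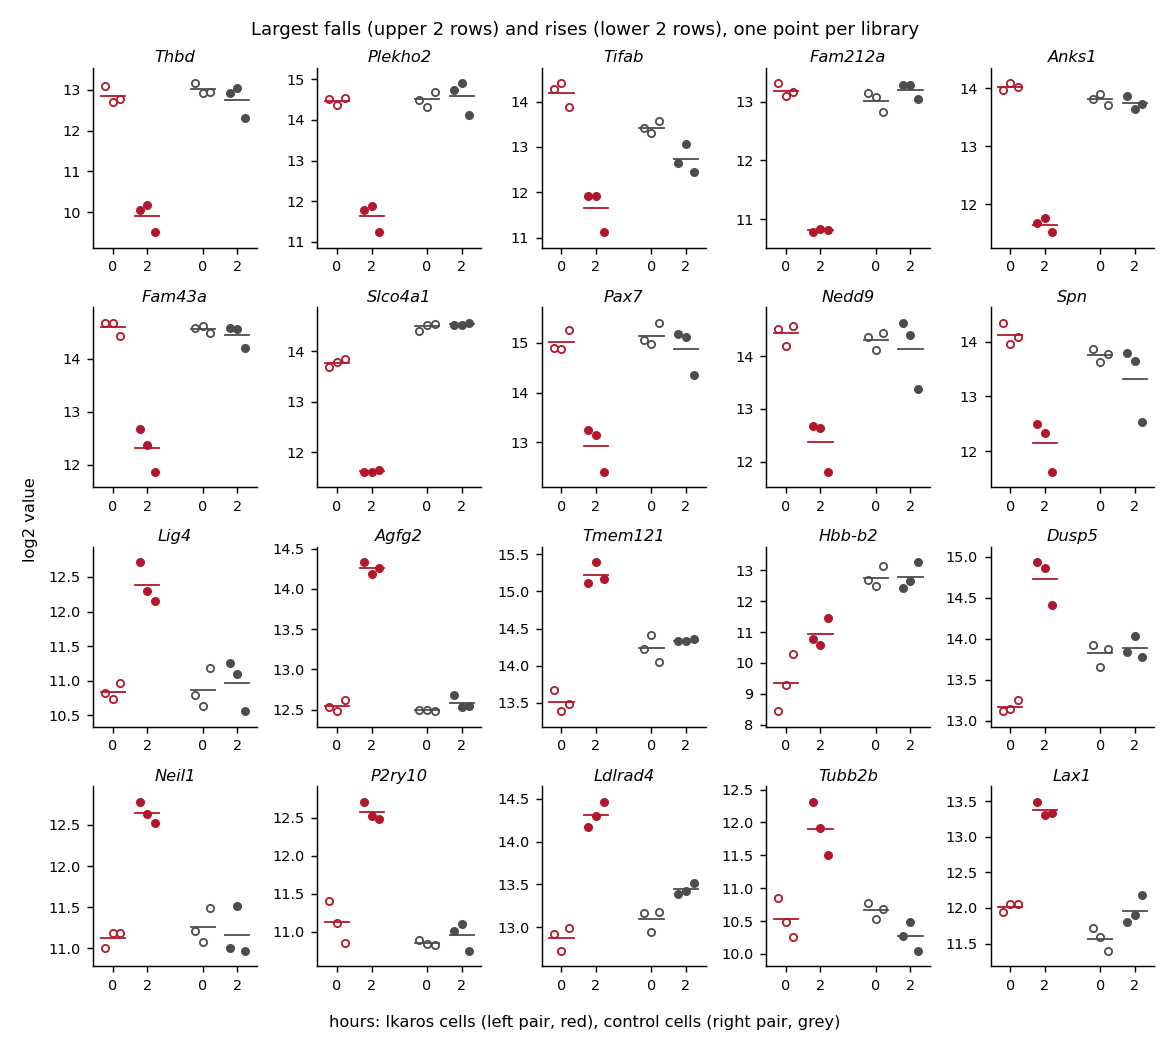
Log2 value in each library of the 10 largest falls (upper 2 rows) and the 10 largest rises (lower 2 rows). They were taken among called genes with separate groups and a mean over all 36 libraries at or above the median gene mean. Open points are at 0 h, filled points at 2 h, and a bar marks the mean of 3 libraries. Within a group the points run from batch 1 on the left to batch 4 on the right. In every panel the red filled points lie beyond the red open points, as the choice of these genes required, while the grey points of control cells overlap between times in most panels, Tifab, Agfg2, Ldlrad4, Tubb2b and Lax1 being the exceptions. Y axes differ between panels.

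The promoters of genes from both ends are shown because the GGGAA core of Ikaros sites can be looked for in them. Letters are from RefSeq on GRCm38.p6, from 250 bases before to 50 after the start of the gene, 5′ to 3′ on the strand of the gene, with each GGGAA or its reverse complement TTCCC in capitals. The genes are the 2 largest falls and the 2 largest rises with a single entry in the table, namely Plekho2 at chr9:65580038-65580337 (reverse strand), Tifab at chr13:56178836-56179135 (reverse strand), Agfg2 at chr5:137684704-137685003 (reverse strand) and Tmem121 at chr12:113185653-113185952 (forward strand).
Plekho2: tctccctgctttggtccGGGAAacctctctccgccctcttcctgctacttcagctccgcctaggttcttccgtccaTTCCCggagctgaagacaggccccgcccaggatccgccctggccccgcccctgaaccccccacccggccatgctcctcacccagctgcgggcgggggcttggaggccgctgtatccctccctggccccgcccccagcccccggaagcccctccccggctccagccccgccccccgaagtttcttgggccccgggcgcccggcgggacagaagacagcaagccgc
Tifab: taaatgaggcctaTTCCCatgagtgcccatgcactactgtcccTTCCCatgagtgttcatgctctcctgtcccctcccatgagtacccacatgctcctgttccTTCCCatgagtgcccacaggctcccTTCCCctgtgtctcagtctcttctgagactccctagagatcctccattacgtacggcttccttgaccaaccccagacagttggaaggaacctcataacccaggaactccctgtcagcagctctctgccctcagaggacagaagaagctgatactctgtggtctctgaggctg
Agfg2: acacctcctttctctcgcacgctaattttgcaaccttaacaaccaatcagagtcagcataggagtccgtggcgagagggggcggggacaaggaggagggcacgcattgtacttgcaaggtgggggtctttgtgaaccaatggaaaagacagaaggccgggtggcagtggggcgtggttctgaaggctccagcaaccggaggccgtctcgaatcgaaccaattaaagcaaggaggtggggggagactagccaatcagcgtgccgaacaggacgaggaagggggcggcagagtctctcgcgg
Tmem121: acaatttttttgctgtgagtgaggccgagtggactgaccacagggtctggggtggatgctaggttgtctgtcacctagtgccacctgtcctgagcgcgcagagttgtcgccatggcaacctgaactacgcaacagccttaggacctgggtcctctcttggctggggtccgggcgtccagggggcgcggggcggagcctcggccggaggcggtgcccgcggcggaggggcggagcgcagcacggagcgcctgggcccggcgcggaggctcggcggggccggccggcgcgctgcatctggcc
Plekho2 held 2 matches and Tifab 4, and neither Agfg2 nor Tmem121 held any. Promoters of other large changes did not divide in this way. Among rises, Dusp5 and both Lax1 entries held 1 match, 1 of 2 Lig4 entries held 1, and Neil1 and both P2ry10 entries held 0. Among falls, Fam43a held 1, Pax7 2, Spn 3 and Nedd9 0. The 2 entries of Anks1 held 2 and 0, and those of Slco4a1 held 0 and 3. Over all genes, GGGAA on either strand was held by 74.6% of the 882 genes called lower that matched by symbol, by 67.2% of the 881 called higher, by 68.7% of the 8586 matched genes of the table and by 62.7% of all 32851 promoters in the reference. With the longer TGGGAA, which contains the same 5 letters, the shares were 30.8%, 24.3%, 26.0% and 25.6%. A gene counted if any of its promoters held the letters, whereas the reference share counts single promoters, so the last share is an unlike measure. GGGAA and TTCCC cannot overlap each other. A match describes these letters and is not a binding site, and no test was made of these shares.

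The median genomic span was 28145 bp for genes called lower, 19755 bp for genes called higher and 19153 bp for all genes, and the longest transcript had a median of 4204, 2983 and 3071 bp. Processed pseudogenes made up 0.498% of the annotated genes called higher, 0.657% of those called lower and 3.26% of all. No test was made of these features.

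Most of the measured feedback genes of the ERK kinase pathway fell. ERK carries growth signals from receptors, and its own target genes include phosphatases and Sprouty proteins that restrain it. Of 14 genes of this list 13 were in the table, and 9 were called lower and 1 higher. Over all genes 9.61% were called lower and 9.54% higher, and the counts of this and the later lists stand beside these shares. The median log2 change of the list was -1.12 in Ikaros cells and -0.08 in control cells, where none was called. Without batch 4 at 2 h, 7 of the 13 were called lower and 1 higher. Dusp4, a phosphatase of nuclear MAP kinases, went from 12.78, 12.34 and 12.66 to 10.50, 10.38 and 9.29 (log2 change -2.54, SE 0.30, adjusted p = 1.18e-06). Batch 4 was the lowest, and the change was -2.15 without it. Spry4, a Sprouty inhibitor of the pathway above ERK, fell by 1.93 and Dusp7 by 1.62. Dusp5 was the exception. This phosphatase of nuclear ERK went from 13.12, 13.14 and 13.26 to 14.93, 14.86 and 14.41 (log2 change 1.56, SE 0.16, adjusted p = 1.32e-07), while the control values stayed between 13.66 and 14.04. For Dusp4, Spry4 and Dusp7 the Ikaros libraries lay above the control libraries at 0 h and below the 0 h control values at 2 h. The difference from the control step was called for 6 members, Dusp5 on the positive side and Dusp4, Spry4, Dusp7, Spry1 and Phlda1 on the negative side. The last 2, a further Sprouty and an apoptosis-linked ERK target with steps of -1.34 and -1.24, lie outside the naming rule and were chosen after their values were seen. With replicates 1 or 2 left out of every group the call of the difference was lost for Dusp4 (adjusted p = 0.15 and 0.152) and Spry4 (0.154 and 0.2). It was lost for Dusp7 without replicate 1 or 3 (0.275 and 0.0957) and for Dusp5 without replicate 1 (0.132).

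The G1 cyclins Ccnd1 and Ccnd2 fell and the inhibitor Cdkn1a rose. D cyclins with Cdk4 or Cdk6 drive cells out of G1, and Cdkn1a encodes p21, which blocks them. Ccnd2 went from 15.48, 15.48 and 15.55 to 14.22, 14.16 and 13.94 (log2 change -1.40, SE 0.18, adjusted p = 3.83e-06), with control values from 14.61 to 15.10. Ccnd1 went from 12.87, 12.53 and 12.72 to 10.99, 11.34 and 10.60, near the 10.30 to 11.06 of control cells over both times, with batch 3 still above that range. Cdk6 fell by 1.02 and Cdkn1a rose by 0.81. Of 22 genes in the list, 21 were measured, 3 were called higher and 3 lower, and the median was 0.02 in Ikaros cells and -0.05 in control cells. The other 2 called higher, named after their values were seen, were the cyclin Ccnd3 with 0.56 and the S phase regulator E2f2 with 0.53. All 6 differed from the control step, although for Cdkn1a this call was lost without any of 5 Ikaros libraries in turn. These were batches 1, 2 and 4 at 0 h (adjusted p = 0.0571, 0.0591 and 0.073) and batches 1 and 3 at 2 h (0.0862 and 0.0808). With replicates 1 or 2 left out of every group the call was lost for Ccnd1 (adjusted p = 0.207 and 0.183), Ccnd2 (0.153 and 0.103) and Cdk6 (0.0846 and 0.284). That of Cdk6 was also lost without replicate 3 (0.0869).

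Of 30 genes of DNA synthesis 4 were called and of 30 genes of G2 and mitosis 6, beside 19.2% of all genes, so neither list stands out by its count. Their medians were 0.01 and 0.00. Tk1, a thymidine kinase, fell by 0.48 and the mitotic cyclin Ccnb1 by 0.78, from 14.24, 14.35 and 14.22 to 13.60, 13.42 and 13.45, and both differed from the control step. Other named members passed the test less firmly. The log2 changes were -0.96 for Rrm2, a subunit of ribonucleotide reductase, 0.41 for Gins2, 0.53 for Cenpe, 0.46 for Cenpf and -0.46 for Aurka. In Cenpe and Cenpf the groups overlapped. Each of these 5 calls was lost without batch 4 at 2 h (adjusted p = 0.141, 0.256, 0.104, 0.112 and 0.201 in the same order). Each was also lost without batch 1 at 0 h (0.0532, 0.111, 0.208, 0.118 and 0.0666). Those of Rrm2, Gins2, Cenpe and Cenpf were lost without batch 4 at 0 h (0.0706, 0.0741, 0.143 and 0.214), those of Gins2 and Aurka without batch 2 at 0 h (0.0558 and 0.0582), and those of Gins2, Cenpe and Cenpf without batch 1 at 2 h (0.0573, 0.106 and 0.0958). Only 1 member of either cycle list was called without batch 4 at 2 h in the upward direction, and 2 in the downward direction.

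Transcription factors of early B cells moved in both directions. Of 36 in the list 32 were measured, 7 were called higher and 11 lower, with a median of -0.23 in Ikaros cells and -0.03 in control cells. Irf4, which acts with Ikaros in pre-B cells and is needed to leave the dividing stage, had the largest fall of the list. It stood at 9.04, 9.15 and 9.08 at 0 h and at 4.51, 3.87 and 3.83 at 2 h (log2 change -5.02, SE 0.38, adjusted p = 4.69e-10), while control cells held 9.46, 9.34 and 10.06 and then 9.28, 9.74 and 8.23. The gene lies below the median level, and at 2 h its values were among the low ones of the table, where a log2 difference is least certain. Lef1, a nuclear partner of beta-catenin expressed in dividing pro-B and pre-B cells, went from 14.24, 14.17 and 14.53 to 12.79, 12.57 and 12.03. Ets1 fell by 1.71 from a level that control cells did not have at either time, 12.02 to 12.47 in Ikaros cells against 6.73 to 7.80 in all control libraries. The steps of Lef1 and Ets1 were not shown to differ from those of control cells (adjusted p = 0.105 and 0.184), and Lef1 passed with the replicate block (adjusted p = 0.0109). Ikzf3, the Ikaros relative Aiolos, fell by 1.58, a call lost without batches 1 and 4 at 0 h (adjusted p = 0.0975 and 0.114) and batches 1 and 3 at 2 h (0.0645 and 0.126). Ebf1, a factor that specifies B cells and one of the pre-B markers, rose by 0.91, from 15.26, 15.30 and 15.03 to 15.82, 15.99 and 16.52, and its difference from the control step was not called (adjusted p = 0.0672, and 0.0258 with the replicate block). Of the 12 pre-B markers 3 were called higher and 2 lower, beside 9.54% and 9.61% of all genes.

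**Figure D3:**
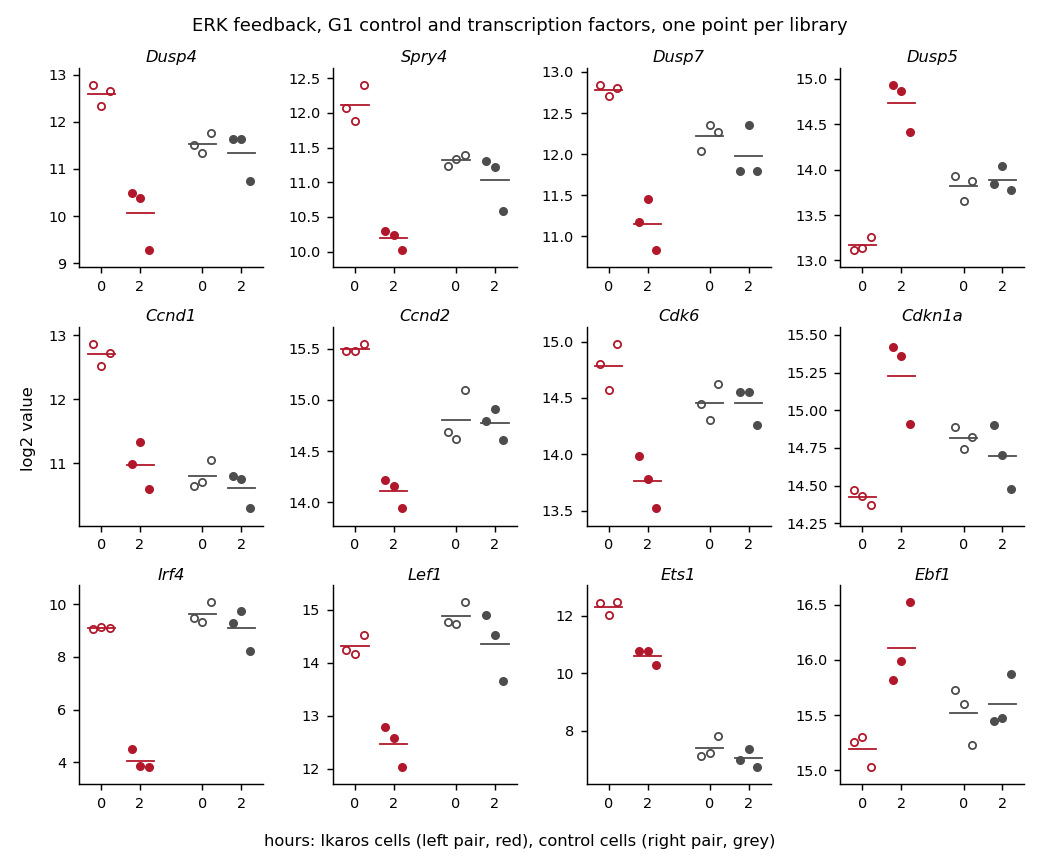
Log2 value in each library of 4 ERK feedback genes, 4 genes of G1 control and 4 transcription factors, drawn with open points at 0 h, filled points at 2 h and bars at group means. Red Ikaros points separate between 0 h and 2 h in all 12 panels, and the grey control points of the 2 times overlap. Dusp5, Cdkn1a and Ebf1 are the panels where the red points rise.

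The pre-B cell receptor and its signalling chain moved in part. Of 24 measured genes 3 were called higher and 5 lower, beside 9.54% and 9.61% of all genes. Their median was -0.24 in Ikaros cells and -0.06 in control cells. Igll1, the lambda5 part of the surrogate light chain, went from 16.43, 16.58 and 16.18 to 15.32, 15.50 and 15.84 (log2 change -0.84, SE 0.20, adjusted p = 0.00355), against 16.44 to 17.22 in control cells. Ptpn6, the inhibitory phosphatase SHP-1, fell by 0.74 and Dok3, an adaptor that dampens the receptor, rose by 0.89. All 3 differed from the control step. The call for Ptpn6 in that test was lost without batches 1 and 2 at 0 h (adjusted p = 0.0985 and 0.0696) and batch 4 at 2 h (0.0967).

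Among the recombination genes, 3 of 15 were called higher and 2 lower, beside 9.54% and 9.61% of all genes. Their median was 0.15 in Ikaros cells and 0.04 in control cells. Without batch 4 at 2 h, 1 of them was called higher and 1 lower. Rag1, the catalytic chain of the recombinase, fell by 1.43, from 11.71, 11.67 and 10.75 to 10.01, 10.31 and 9.52. Control cells had -0.89, uncalled and with separate groups, so the difference of steps was -0.54 (adjusted p = 0.681). Atm, the kinase that senses DNA breaks, had a change of -0.79 and Xrcc4, the partner of Lig4, one of 0.68. Both calls were lost without batch 4 at 2 h (adjusted p = 0.163 and 0.119) and without batch 4 at 0 h (0.0752 and 0.0647), and that of Xrcc4 also without batch 1 at 0 h (0.0749).

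Myc, a transcription factor that drives cell growth, had the largest fall of its network. It went from 16.30, 16.47 and 16.44 to 14.69, 14.90 and 14.64 (log2 change -1.66, SE 0.17, adjusted p = 6.45e-08), a fall of 3.2-fold with control values from 16.16 to 16.67. Its dimer partner Max had -0.51 and Mycn, a paralogue low in Ikaros cells, 1.44. Of the 11 genes in that network 1 was called higher and 2 lower. The call of Max was lost without batch 4 at 2 h (adjusted p = 0.331) and without any of the 0 h libraries (0.0795, 0.0646 and 0.13), and that of Mycn without any of the 6 Ikaros libraries (0.0686 to 0.139). Ribosome biogenesis, which Myc drives, had medians of -0.09 and 0.01 in Ikaros and control cells. Of its 36 genes 2 were called lower and none higher, beside 19.2% of all genes called. These 2 were Heatr1 and Polr1b, with -0.45 and -0.42, and both calls were lost without batch 4 at 2 h (adjusted p = 0.28 and 0.153) and at 0 h (0.184 and 0.207), that of Heatr1 also without batch 1 at 0 h (0.0554) and that of Polr1b without batch 1 at 2 h (0.0599). The difference for Polr1b was not called (adjusted p = 0.177, and 0.0385 with the replicate block).

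Of 22 measured glycolysis genes 4 were called, near the 19.2% of all genes, with a median of -0.03 in Ikaros cells and -0.24 in control cells. Hk2, the hexokinase that starts glycolysis, was called lower in Ikaros cells, from 13.91, 13.89 and 13.42 to 12.76, 12.66 and 12.30 (log2 change -1.17, adjusted p = 2.05e-06). Control cells had -0.63 with separate groups, from 13.64, 13.39 and 13.43 to 12.89, 12.99 and 12.70, and the difference of steps was -0.54 (adjusted p = 0.211). Pfkfb3 and Pfkfb4, enzymes that set the level of a glycolysis activator, had -0.99 and 0.85, and the lactate carrier Slc16a1 had -0.59. All 3 calls were lost without batch 4 at 2 h (adjusted p = 0.0613, 0.181 and 0.118), that of Slc16a1 also without batch 1 at 0 h (0.102), and that of Pfkfb4 without batches 1, 2 and 4 at 0 h (0.053, 0.0704 and 0.189) and batch 3 at 2 h (0.0848). Of 20 hypoxia genes 2 were called, both lower, beside the 19.2% of all genes. Ndrg1, a stress protein, fell by 1.80 from 14.52, 14.50 and 13.93 to 12.50, 12.80 and 12.23 and differed from the control step, where it changed by -0.59 without a call. Ddit4, an inhibitor of mTOR, had -0.96, with overlapping groups, and its call was lost without batch 1 at 0 h or batch 4 at 2 h (adjusted p = 0.0636 and 0.0834). The hypoxia median was -0.06 in Ikaros cells and -0.32 in control cells, and that of Ikaros cells changed sign in 6 settings, to 0.08 at most.

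The genes followed by RT-PCR in the study were chosen there for the response of these cells, so their directions are not independent evidence. Of the 7, Lig4 and Foxo1 rose and Igll1, Myc and Hk2 fell. Foxo1, which drives the recombination programme, went from 14.16, 14.22 and 14.26 to 14.78, 14.65 and 14.62 (log2 change 0.47, adjusted p = 0.000356). Slc7a5, an amino acid transporter, had -0.35 and Ldha, which makes lactate, 0.37, neither called (adjusted p = 0.197 and 0.237). In Ldha the batch 4 library at 0 h was low in both lines, at 17.30 and 17.12 against 17.90 to 18.32. At 24 h the Ikaros means of Slc7a5 and Ldha were 12.63 and 14.78, against 15.37 and 18.32 at 2 h. Of the 24 h course of these genes, the first 2 h thus held most of the change for Myc, from 16.40 to 14.74 with 13.49 at 24 h. They held none of the fall of Ldha, whose uncalled change of 0.37 was upward.

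**Figure D4:**
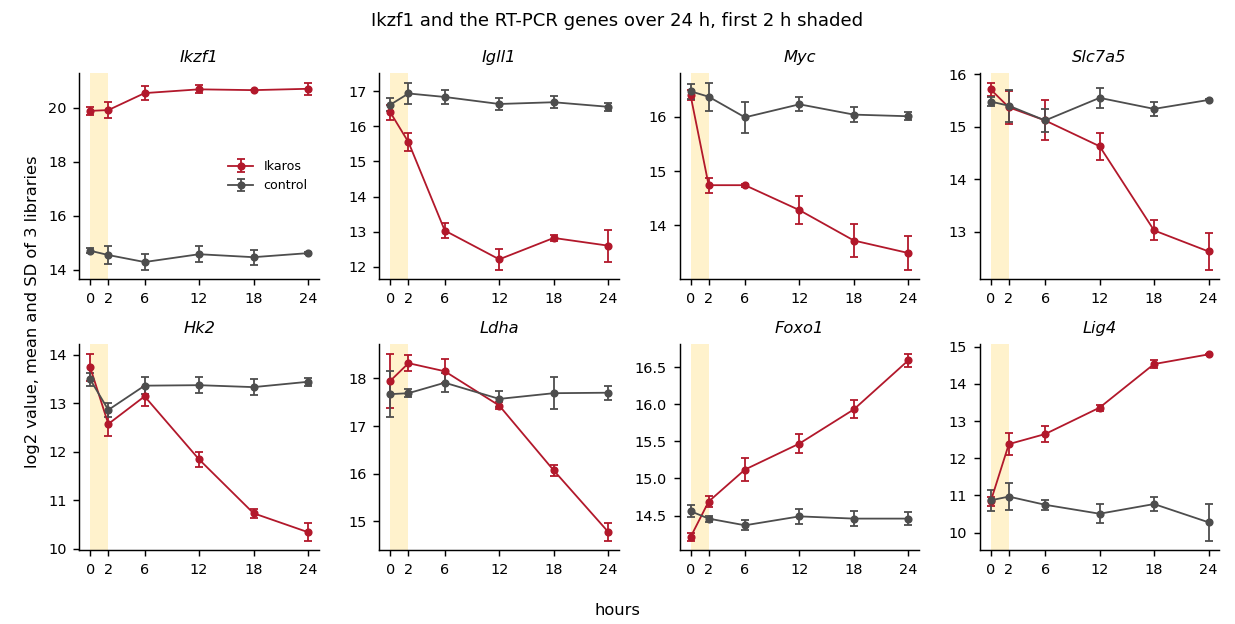
Mean log2 value with SD of 3 libraries against hours for Ikzf1 and the 7 RT-PCR genes, Ikaros cells in red and control cells in grey, with the first 2 h shaded. Myc and Lig4 in Ikaros cells made a steep step inside the shaded interval, while Ldha turned down only at later times. Slc7a5 had an uncalled fall inside the interval and fell further at later times.

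Bcl2l1, which encodes the survival protein Bcl-xL, went from 13.98, 13.86 and 13.89 to 12.55, 12.45 and 12.47 (log2 change -1.42, SE 0.14, adjusted p = 2.51e-08), with control values from 14.31 to 14.52, and it differed from the control step. Il2rg, the common chain of the IL-7 receptor, rose by 0.88, and the cytokine Osm had -0.91, a call lost without batch 4 at 0 h or at 2 h (adjusted p = 0.0718 and 0.158). Of 20 genes of the IL-7 and JAK-STAT list 1 was called higher and 2 lower, and of 11 Bcl2 family genes 1 higher and 2 lower, beside 19.2% of all genes called in either direction, where Bid had 0.54 and Bbc3, the BH3 protein Puma, -0.49. The call of Bbc3 was lost without batches 1 and 4 at 0 h (adjusted p = 0.102 and 0.0921) and at 2 h (0.0592 and 0.172). In the NF-kB feedback list 2 of 13 were called higher and 4 lower, and without batch 4 at 2 h 1 was called higher and 2 lower. Tnfaip3, the inhibitor A20, fell by 1.72 and Nfkb2 by 0.90, with 11.40 in all 3 libraries at 2 h, and Icam1, an adhesion receptor, rose from 12.84, 12.85 and 12.85 to 13.72, 13.70 and 13.54. These 3 differed from the control step. Nfkbie had -0.74, a call lost without batch 4 at 2 h (adjusted p = 0.0856). Medians of the IL-7, Bcl2 and NF-kB lists were -0.24, -0.25 and -0.15 in Ikaros cells and -0.14, 0.06 and -0.04 in control cells.

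Immediate early genes, which respond to stimulation within minutes, had 3 of 26 called higher and 6 lower, with a median of -0.36 in Ikaros cells and 0.12 in control cells. Without batch 4 at 2 h, 2 were called higher and 3 lower. Ier3 fell by 1.44 and differed from the control step. Rgs1, which ends G protein signals, rose by 1.55, from 9.63, 9.94 and 9.28 to 11.38, 10.84 and 11.27, and in control cells it changed by 0.91 with separate groups and no call. Egr3 and Zfp36l1 had -1.50 and -1.41. Both calls were lost without batch 4 at 0 h (adjusted p = 0.195 and 0.079) and at 2 h (0.246 and 0.261), that of Egr3 also without batch 2 at 0 h (0.11) and batch 1 at 2 h (0.11), and that of Zfp36l1 without batch 1 at 0 h (0.111). The difference for Zfp36l1 was not called (adjusted p = 0.404, and 0.0214 with the replicate block).

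Of 12 measured Notch receptors and targets 3 were called higher and 4 lower, with a median of -0.49 in Ikaros cells and -0.05 in control cells. Without batch 4 at 2 h, 1 was called higher and 3 lower. Lfng, a glycosyltransferase that tunes Notch receptors, went from 11.38, 11.33 and 11.14 to 9.36, 9.47 and 8.49, and Dtx4, a Deltex relative, from 13.56, 13.38 and 13.51 to 11.95, 11.95 and 11.41, and both differed from the control step. Dtx3 had 0.70 and Nrarp, a Notch target that limits the signal, -0.70, and both calls were lost without batch 4 at 2 h (adjusted p = 0.0519 and 0.136). The step of Nrarp was not shown to differ (adjusted p = 0.0969, and 0.00264 with the replicate block).

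Adhesion and migration genes had 4 of 20 called higher and 7 lower, beside 9.54% and 9.61% of all genes. Their median was -0.24 in Ikaros cells and -0.02 in control cells. Cxcr5, a chemokine receptor that guides B cells to follicles, had the largest rise of any list member, from 3.26, 4.22 and 4.03 to 7.27, 7.31 and 7.23 (log2 change 3.44, SE 0.44, adjusted p = 2.92e-06), against 4.10 to 6.07 in control cells. It remained far below the median gene. The integrin chain Itga5 had -1.67, a call lost without batch 1 at 2 h (adjusted p = 0.0568), and Itgb7 had 1.49, with overlapping groups, a call lost without batch 4 at 0 h and batches 3 and 4 at 2 h (0.189, 0.109 and 0.231).

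Called sterol synthesis genes were all higher and called heat shock genes all lower in Ikaros cells, and the medians of both lists had the same sign in control cells. Of 23 measured sterol genes 12 were called higher and none lower, with a median of 0.50 in Ikaros cells and 0.17 in control cells, where 20 of 23 had a positive sign. Sc4mol, a sterol methyl oxidase, went from 13.08, 13.19 and 12.59 to 13.94, 14.13 and 14.12 in Ikaros cells and from 12.77, 12.79 and 12.38 to 13.24, 13.09 and 13.25 in control cells, with separate groups in both lines. The kinases Pmvk and Mvk rose by 0.83 and 0.74 and the reductase Dhcr7 by 0.72. The call of Pmvk was lost without batch 4 at 2 h (adjusted p = 0.0504), and 9 sterol genes were called without that library. No sterol gene differed from the control step, although Pmvk did with the replicate block (adjusted p = 0.00379).

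Of 12 heat shock genes 6 were called lower and none higher, and 4 without batch 4 at 2 h, with a median of -0.50 in Ikaros cells and -0.19 in control cells. Hspa8, the constitutive Hsc70 chaperone, fell in both lines. It went from 17.98, 18.04 and 18.34 to 17.17, 16.94 and 16.77 in Ikaros cells and from 17.88, 18.00 and 18.17 to 17.19, 17.38 and 17.07 in control cells (log2 change -0.80, adjusted p = 0.0211). Hsph1, an exchange factor for Hsc70, fell by 0.92 in Ikaros cells and had -0.84 in control cells without a call, and Hspa1b and Chordc1 fell by 1.35 and 0.64 in Ikaros cells. None of the 12 differed from the control step, although with the replicate block 1 of them, Hspa1b, was called (adjusted p = 0.0757, and with the block a value just under the threshold of 0.05). In the amino acid stress list 1 of 22 genes was called, Gpt2 with -0.61, beside 19.2% of all genes. The medians of that list were -0.14 and -0.05.

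**Figure D5:**
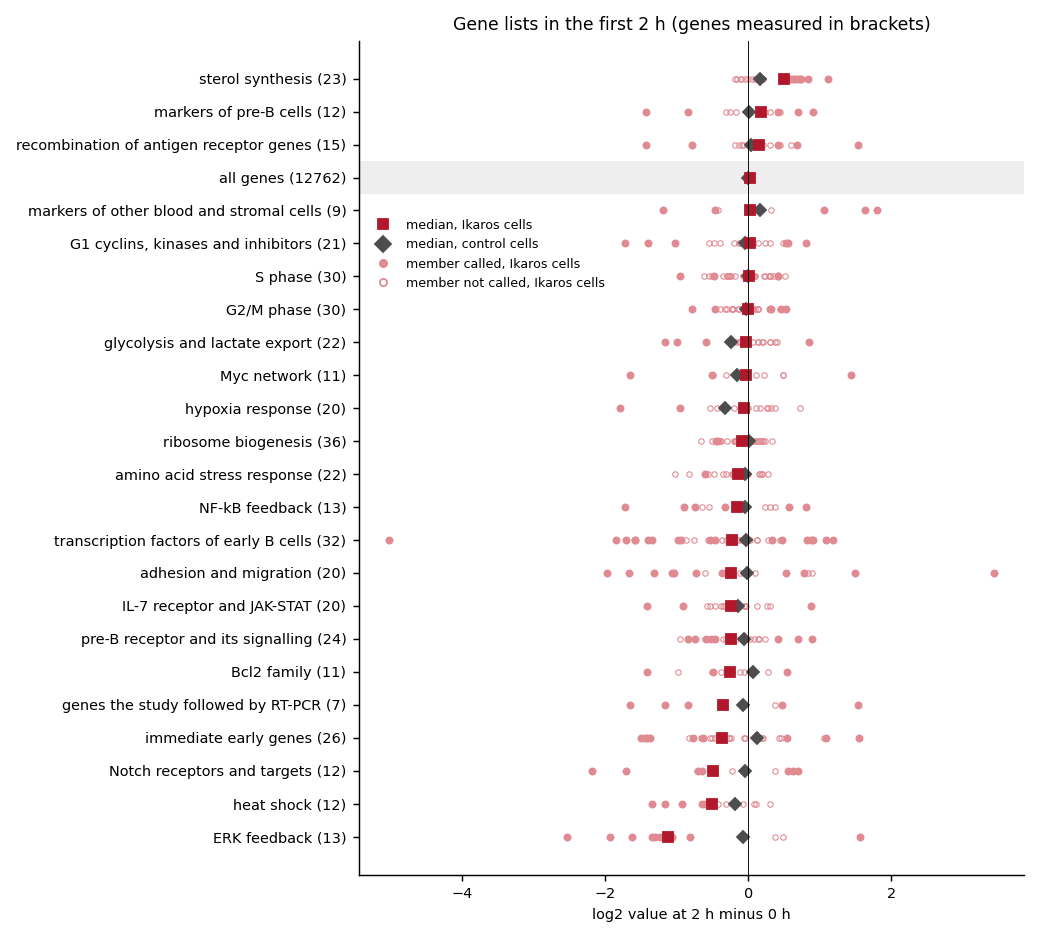
Log2 value at 2 h minus 0 h for the members of each gene list in Ikaros cells (circles, filled where called) with the list medians in Ikaros cells (red squares) and control cells (grey diamonds), and the medians of all 12762 genes in the shaded row. ERK feedback has the lowest Ikaros median, -1.12, and sterol synthesis the highest, 0.50, while the control medians lie between -0.32 and 0.17.

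Markers of other cell types were mixed. Of the 9 measured, 3 were called higher and 2 lower. Itgam, a myeloid integrin chain, had 1.80, Klrd1, a natural killer receptor, 1.63, Itga2b, the platelet integrin chain, 1.06, and Pecam1, which B lineage cells also express, fell by 1.19, as did Lck, a kinase of T cells, by 0.47, named after its value was seen. Lck differed from the control step, while the difference for Pecam1 was not called (adjusted p = 0.0593, and 0.0161 with the replicate block). The calls of Itgam, Klrd1 and Itga2b were lost without batch 4 at 2 h (adjusted p = 0.0857, 0.121 and 0.21), those of Itgam and Itga2b without batches 2 (0.0631 and 0.0748) and 4 at 0 h (0.0888 and 0.172), that of Klrd1 without batch 1 at 0 h (0.0681) and that of Itga2b without batch 3 at 2 h (0.0575). Itgam stood at 3.66 to 4.75 at 0 h and at 5.81 to 6.02 at 2 h, near the floor of the table. The part of these markers in other results was not tested.

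Genes called in control cells, where no Ikaros fusion was present, are the background for the step. The 5 named by size were Lmcd1, Hvcn1, Hspa8, Adck3 and Amigo1. Lmcd1, a transcriptional cofactor, went from 9.48, 9.49 and 9.09 to 9.99, 10.48 and 10.54 in control cells (log2 change 0.99, adjusted p = 0.0193) and from 9.32, 9.40 and 9.10 to 11.35, 11.46 and 11.32 in Ikaros cells (2.11), and the steps differed. Hvcn1, a proton channel of B cells, rose by 0.81 in control cells and by 0.55 in Ikaros cells. Adck3, a mitochondrial kinase of coenzyme Q synthesis, rose by 0.73 and Amigo1, an adhesion protein, fell by 0.62 in control cells, and in Ikaros cells both groups overlapped. The control step is thinly supported, since limma called 0 genes without batch 2 or batch 4 of control cells at 0 h, where 710 and 755 genes had an unadjusted p under 0.05, and 1 without batch 1 or batch 4 of control cells at 2 h.

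A contrast whose means come from none of these 12 libraries, though its errors rest on the spread of all 36, was set beside the step. Ikaros against control cells at 6 h gave 4759 calls (37.3%), of which 2311 were on the higher side in Ikaros cells (18.1%) and 2448 on the lower side (19.2%), with 2150 calls in a fit of the compared groups only. Of the 1218 genes called higher in the first 2 h, 457 (37.5%) were called higher at 6 h and 81 (6.65%) lower. Of the 1226 genes called lower, 518 (42.3%) were called lower at 6 h and 105 (8.56%) higher. As shares of the genes called at 6 h, these are 19.8% of those higher and 21.2% of those lower. Of the 393 genes that fell by at least 1, 196 (49.9%) were called lower at 6 h. Ikaros against control at 6 h also holds differences that the lines had at 0 h. Ets1 and Ndrg1, which fell in the step, were higher than in control cells at 6 h by 4.69 and 1.22, and both had lain above all control libraries at 0 h. Neil1 and Tubb2b, whose 0 h libraries overlapped those of control cells, were higher at 6 h by 2.90 and 3.06.

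Later means of genes chosen after their values were seen show that some early changes did not last. Thbd stood at a mean of 9.92 at 2 h, 9.99 at 6 h and 12.68 at 24 h in Ikaros cells, near the 12.85 of 0 h, and Slco4a1 at 11.63, 11.80 and 13.84 at the same times after 13.77 at 0 h. Irf4 returned from 4.07 at 2 h to 8.67 at 24 h, and Tmem121 rose to 15.70 at 6 h and stood at 13.30 at 24 h, below its 13.52 of 0 h. Others kept going in the same direction. Lig4 passed from 12.38 at 2 h to 14.79 at 24 h, Tubb2b from 11.90 to 16.43 and Ccnd1 from 10.97 to 6.68, while the control means of these 3 genes at 24 h were 10.28, 10.39 and 10.81. These later means are given as a description with no test.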

How the data were processed

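Messenger RNA was sequenced from 36 B3 cultures, of which the 12 at 0 h and 2 h, 3 per line and time, carry the comparisons here, and all 36 entered the fit. According to the labels and the study's methods, stranded poly(A) libraries were aligned to mm10 with TopHat2 and counted per gene with HTSeq, corrected with cqn for GC content and length and adjusted with ComBat. The deposited log2 values result from these steps by the authors, and they span 1 to 22. Base 2 follows from cqn and is not written in the table. A batch adjustment made before deposition may make the standard errors too small. Tool versions, the gene annotation and the strand setting of the counting are not given in the sources used here. The replicates are separate culture batches. No library shared more than 0.384% of its values with another, and 0 columns were left unused.

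Linear models with moderated variances (limma 3.58.1, run under R 4.3.3) had a mean for each of 12 groups and were tested two-sided with Benjamini-Hochberg adjustment over 12762 genes and a call at an adjusted p under 0.05. The steps from 0 h to 2 h, their difference and Ikaros against control at 6 h were the contrasts. The code was tested on data with known answers first.

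Gene lists (23, described by counts and medians with no set test) and the comparison itself were chosen with earlier results of these data known. Named genes were Ikzf1, the RT-PCR genes, the 10 largest rises and falls in Ikaros cells and the 5 largest differences of steps in each direction. These rises, falls and differences were taken among called genes with separate groups, a mean over all 36 libraries at or above the median gene and a symbol. Up to 5 called genes of control cells were named without the limit on the mean. From each list, up to 4 called members with the largest change were named. Positions are from GENCODE M21 on GRCm38, which is mm10, where 98.7% of the genes were found. Same-numbered libraries of the lines at 1 time share a culture batch by the labels, and their deviations from group means correlated between 0.07 and 0.51. Between 0 h and 2 h within a line they correlated between -0.27 and 0.05, so the numbers were not taken to pair the times. Alternatives were replicate blocks, a filter at the 25th percentile of mean level, quantile normalization, median centring, a trended and robust eBayes, fits of the compared groups only and leaving out replicates and single libraries. Removal of a trend with GC content and transcript length (20 classes each) was chosen after seeing the data. Single genes that the naming rule chose are in places not reported here.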

Additional observations from a re-analysis of the deposited data

Results flagged for a closer look

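The difference between the Ikaros step and the control step from 0 h to 2 h was tested itself, and the genes below are those named above for which it was called by limma at an adjusted p under 0.05, 396 genes in all. Values are the log2 step of Ikaros cells minus that of control cells. In groups of 3 libraries no test for a single outlying library was made.

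Among the largest changes, the difference was -2.92 for Plekho2, -2.67 for Thbd, -2.56 for Fam212a, -2.31 for Anks1, -2.18 for Slco4a1, -2.16 for Fam43a, -1.88 for Nedd9, -1.83 for Tifab and -1.81 for Pax7. In the other direction it was 1.77 for Tubb2b, 1.63 for both Agfg2 and Neil1, 1.60 for Tmem121, 1.5 for Dusp5, 1.34 for P2ry10, 1.08 for Ldlrad4, 0.98 for Lax1 and 1.12 for Lmcd1, which rose in both lines. Among the RT-PCR genes it was -1.56 for Myc, -1.16 for Igll1, 0.58 for Foxo1 and 1.44 for Lig4.

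In the ERK feedback list the difference was -2.34 for Dusp4, -1.65 for Spry4 and -1.38 for Dusp7. In G1 control it was -1.55 for Ccnd1, -1.36 for Ccnd2, -1.02 for Cdk6 and 0.93 for Cdkn1a, and in the later cycle -0.77 for Ccnb1 and -0.44 for Tk1. Irf4 had the most negative difference of the named genes with -4.49, and Cxcr5 the most positive with 2.92. For Cxcr5, whose values lay far below the median gene, the call was lost without replicate 1 or 2 of every group (adjusted p = 0.323 and 0.0832). In receptor and cytokine signalling the difference was 0.65 for Dok3, -0.62 for Ptpn6, 0.93 for Il2rg and -1.5 for Bcl2l1. In the remaining lists it was -1.75 for Lfng, -1.66 for Dtx4, -1.57 for Ier3, -1.45 for Tnfaip3, -1.22 for Ndrg1, -0.70 for Nfkb2 and 0.92 for Icam1.

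Calls of the difference that a single Ikaros library decided, beside those of Ptpn6 and Cdkn1a given above, were Il2rg (lost without batches 1 and 4 at 0 h and at 2 h, adjusted p = 0.0985, 0.0591, 0.0602 and 0.0848), Tk1 (batches 1 and 4 at 0 h, 0.0634 and 0.0553), Ccnb1 (batches 1 and 2 at 0 h and 3 and 4 at 2 h, 0.0531, 0.0692, 0.0648 and 0.0656) and Tnfaip3 (batches 1 and 2 at 0 h and 1 and 4 at 2 h, 0.0935, 0.0542, 0.0762 and 0.0783). Single control libraries decided the calls of Igll1 (lost without batch 1 at 2 h, adjusted p = 0.0618), Nfkb2 (batch 2 at 0 h or batch 3 at 2 h, 0.0545 and 0.0525) and Tk1 (batch 1 at 0 h or at 2 h, 0.0555 and 0.078). They also decided those of Ptpn6 (4 control libraries in turn, 0.0604 to 0.105), Il2rg (5, 0.0541 to 0.107), Cdkn1a (5, 0.0527 to 0.0836), Ccnb1 (4, 0.0557 to 0.0967) and Tnfaip3 (4, 0.0517 to 0.0801).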

How the results depend on the processing

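The Ikaros step called 2444 genes, and the count moved by over 1.5 times with a replicate block by batch (3720) and with a fit of the compared groups only (758). Without replicate 1, 2 or 3 of every group, or without a single Ikaros library, it ranged from 645 to 2738. The other settings, the replicate block by number included (3475), gave 2206 to 3475. The replicate numbers do not pair 0 h with 2 h, so these blocks only show how the count depends on the model. The control step called 6 genes, 13 with a replicate block, 0 with the compared groups only (limma, 1002 at an unadjusted p under 0.05) and 0 to 6 without replicates or single libraries (467 to 1645 at an unadjusted p under 0.05). The difference of steps called 396 genes, and 632 with each pair of cultures at each time as its own replicate block. It called 257 with the compared groups only, and 54 to 473 without replicates or single libraries. Ikaros against control at 6 h called 4759 genes, 2150 with the compared groups only and 2640 to 4971 without replicates or single libraries. Settings without replicates and the compared groups alone use fewer samples. For the others the cause was not tested.

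Of the 94 named genes called in the Ikaros step, 45 were called under every alternative that could be run and none changed sign. Of the 45 named genes with a called difference of steps, 10 were called under every alternative. Medians of lists near 0 changed sign without replicates or single libraries or in other settings. The values of the opposite sign reached 0.11 for glycolysis, 0.09 for the Myc network, 0.08 for hypoxia and 0.03 for ribosome biogenesis. They reached -0.1 for G1, -0.07 for S phase and 0.05 for G2/M. For markers of other cells the median was -0.29 without replicate 2. With the filter on low values it was -0.83, a median over fewer members, since Itgam, Klrd1 and Itga2b were among the genes removed. Signs changed in genes that were not called. Without replicates or single libraries Ikzf1 ranged from -0.21 to 0.20, Ldha from -0.01 to 0.60 and Amigo1 from -0.16 to 0.04, and the difference of steps from -0.07 to 0.53 for Cenpe and from -0.25 to 0.03 for Hsph1. Ikzf1 was also -0.08 with a replicate block by batch, and Amigo1 0.08 with the GC content and length trend removed. The removal of that trend was chosen after seeing the data. With 3 libraries a group and unknown depth, a gene that was not called is not shown to be unchanged.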
